A study of Homo sapiens with 6 samples.

Results

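The MYC, MAX, MXD and MLX network is the group of transcription factors listed here as *MYC*, *MYCN*, *MYCL*, *MAX*, *MXD1*, *MXD3*, *MXD4*, *MXI1*, *MNT* and *MLX*. Its members were taken as the rows of the deposited tables that carry these gene symbols, which gave 10 of 58735 genes. They were followed in H2452 cells, an established pleural mesothelioma (PM) line. The series holds 3 libraries of cells that received a scrambled control sgRNA (sgCtrl) and 3 of cells that received an sgRNA against *NF2* (sgNF2-1, labelled NF2-KO), and it asks what loss of this tumor suppressor does to the transcriptome. Both groups were infected with the same lentiviral vector for Cas9, sgRNA and mCherry, and sorted for mCherry, and no selection of single clones is described. The study's statistical methods describe its replicates in general as biological, but the labels do not say whether these libraries are separate cultures, and the p-values measure only the spread between them, which may be partly technical.

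Proteins of this network share a basic helix-loop-helix leucine zipper domain and bind DNA in pairs. MYC binds the E-box with MAX and activates genes of growth, nucleotide synthesis and ribosome production. The MXD proteins, MXI1 and MNT compete for the same partner, recruit SIN3 and histone deacetylases and repress many of the same genes, while MLX is the partner of the glucose-sensing factors MLXIP and MLXIPL and also pairs with some of the repressors.

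Each library held between 14782423 and 17416463 counts. The targeted gene *NF2* gave counts of 1162, 1197 and 1025 in sgCtrl against 692, 802 and 590 in sgNF2-1, with every sgNF2-1 library below every sgCtrl library and a log2 fold change of -0.69. Of 10 mesothelial markers, 8 were above 1 CPM (counts scaled to TMM-adjusted library totals) in every library, among them *MSLN*, *WT1* and the keratins *KRT7*, *KRT8*, *KRT18* and *KRT19*, while *KRT5* had a mean of 0.0439 CPM in sgCtrl and 0.122 CPM in sgNF2-1. The summed level of these markers was 3480 to 3925 CPM in sgCtrl and 3372 to 4132 CPM in sgNF2-1, though single markers moved in both directions, with log2 fold changes of 1.20 for *KRT7* and 0.66 for *MSLN* but -1.28 for *PDPN* and -1.04 for *WT1*, and their part in the results below was not tested. The 3 leukocyte markers summed to at most 0.190 CPM in any library, with *PTPRC* at 0 in all. The 3 endothelial markers summed to 6.19 to 8.53 CPM in sgCtrl and 1.93 to 3.24 CPM in sgNF2-1. The lower sum came from *PECAM1*, with a log2 fold change of -2.28. *CDH5* did not share this decrease, with a log2 fold change of 0.37 and overlapping groups. *VWF* was near 0, with means of 0.107 CPM in sgCtrl and 0.0189 CPM in sgNF2-1. The part of these markers in the results below was not tested.

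After *NF2* targeting, *MYC* doubled (fold change 2.10), and its obligate partner *MAX* rose by less (fold change 1.33). The repressors split. *MXD4* and *MXD3* fell to 72.2% and 60.3% of their sgCtrl level, while *MXD1* and *MNT* rose to 142.7% and 126.1%. *MLX* rose to 131.5%, and *MXI1* did not pass the test. *MYCN* and *MYCL* were at or near 0 in both groups.

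These calls come from edgeR's quasi-likelihood test, fitted to the 14179 genes that passed its filter on low counts, with Benjamini-Hochberg adjustment over all of them and an adjusted p threshold of 0.05. At this threshold 5 of the 8 tested members were higher in sgNF2-1, against 17.7% of all tested genes, and 2 were lower, against 16.6% of all tested genes. The study's own thresholds, a p under 0.05 taken here as unadjusted and a log2 fold change beyond 0.5, were passed by 2 members in the higher direction (9.22% of all tested genes) and by 1 in the lower direction (10.8%). The sgNF2-1 libraries lay entirely above the sgCtrl libraries for 5 members and entirely below for 2, where this held for 23.2% and 22.2% of the tested genes. Over the 8 tested members the median log2 fold change was 0.36, beside -0.003 over all tested genes. The other 91 genes that the authors' table assigns to the basic helix-loop-helix family held 38 tested genes, of which 11 were higher and 13 lower, with a median of 0.002. Among the 997 tested genes of all transcription factors outside the members, which include these 38, 169 were higher and 120 lower, with a median of 0.02. In either direction, 34.3% of all tested genes were called.

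**Figure D1:**
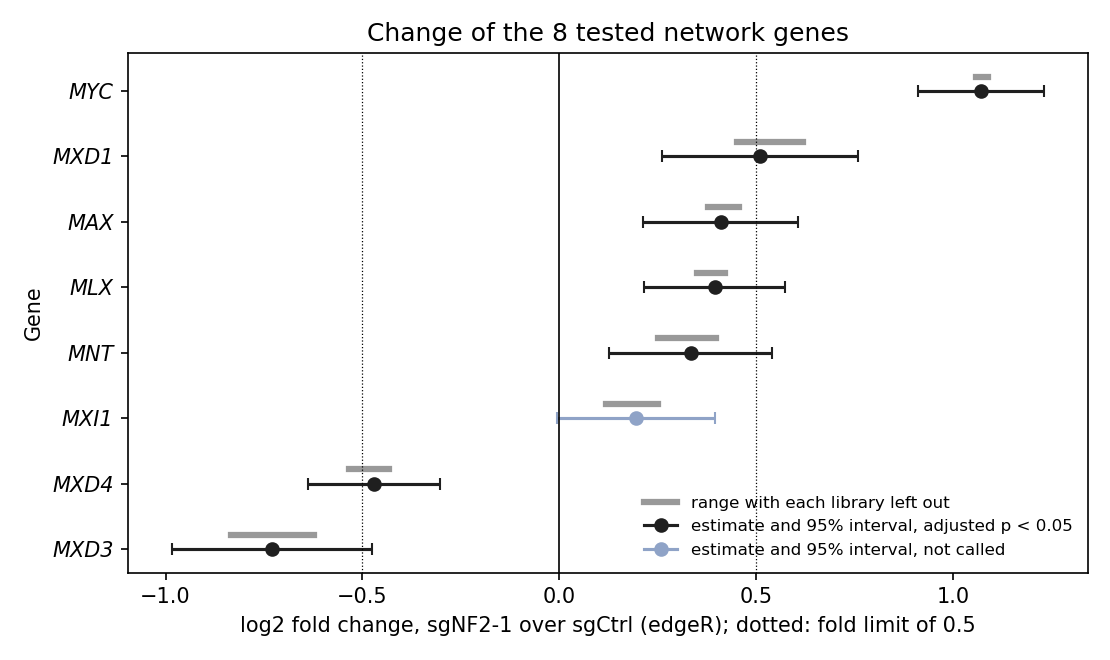
Log2 fold change of each tested member in sgNF2-1 over sgCtrl (horizontal axis), with its 95% interval from edgeR and, in gray above it, the range of the estimates with each of the 6 libraries left out in turn. *MYC* lies alone at 1.07, *MXD4* and *MXD3* lie below 0 with their whole intervals, and the interval of *MXI1*, drawn in light blue, reaches from -0.01 to 0.40.

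*MYC* (ENSG00000136997, chromosome 8 of GRCh38, 127735434 to 127741434, plus strand) encodes the activator of the network. Its counts were 2534, 2597 and 2420 in sgCtrl, against 5891, 5275 and 4677 in sgNF2-1. The groups were far apart, and the replicates within each were close. In CPM, sgCtrl averaged 159.5 ± 1.28 and sgNF2-1 averaged 335 ± 6.67 (SD, n = 3 each). The log2 fold change was 1.07 (standard error, SE, 0.08, 95% interval 0.91 to 1.23, adjusted p = 1.1e-10, edgeR), and estimates from 5 libraries, omitting 1 at a time, lay between 1.06 and 1.09. A two-sided exact permutation test over the 6 libraries gave p = 0.10, the smallest that 3 libraries against 3 allow, as it did for each of the 7 called members. In bulk RNA, a change in the number of cells that express a gene and a change in the RNA per cell cannot be told apart, and none of these values measures protein.

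The paralogs of *MYC* added almost nothing to its level. *MYCN* (ENSG00000134323) had 0 counts in all 6 libraries, which allows at most 3 counts, or 0.170 to 0.211 CPM, in each library, counting error only. *MYCL* (ENSG00000116990) had 4, 2 and 3 counts under the control sgRNA and 1, 4 and 5 under the *NF2* sgRNA. Neither gene reached the count filter. Fitted without that filter, *MYCL* had an interval of -1.91 to 2.31 for the log2 fold change (adjusted p = 0.93, edgeR), so that no difference was detectable at this depth. The *MYCN* antisense transcript *MYCNOS* had 1 count in a single sgCtrl library.

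*PVT1* (ENSG00000249859, chromosome 8, 127794533 to 128101253), a long noncoding gene downstream of *MYC*, moved in the same direction as *MYC* by a smaller amount. Counts of 633, 603 and 603 in sgCtrl stood against 957, 895 and 831 in sgNF2-1, with no overlap between the groups. On the log2 scale the difference was 0.55 (SE 0.09, adjusted p = 5.0e-05, edgeR). The 10 tested genes nearest *MYC*, which reach 3099 kb from it, did not share a direction. Of them 3 were higher and 2 lower, beside 17.7% and 16.6% of all tested genes. Their log2 fold changes ran from -1.49 to 2.02, with a median of -0.11. *CASC11*, next to *MYC*, was at 0.296 CPM in sgCtrl and 0.249 CPM in sgNF2-1 and was not tested.

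Across the 6 libraries, the genes of at least 10 CPM whose level followed *MYC* most closely were *MTHFD1L*, *AJAP1* and *CLDN11*. Likeness was the Euclidean distance between log2 CPM profiles, each centered on its own mean, and the distances were 0.11, 0.13 and 0.14. Their log2 fold changes were 0.99, 1.04 and 1.00 (SEs 0.08, 0.09 and 0.08). *MTHFD1L* encodes a mitochondrial enzyme of folate one-carbon metabolism, *CLDN11* a claudin of tight junctions and *AJAP1* a junction-associated membrane protein. With 3 libraries in each group this distance depends mainly on the size of the group difference.

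*MAX* (ENSG00000125952, chromosome 14, 65006174 to 65102695, minus strand) encodes the common partner of MYC, the MXD proteins, MXI1 and MNT at the E-box. Its counts were 554, 579 and 528 in sgCtrl and 828, 677 and 697 in sgNF2-1. Every sgNF2-1 library was above every sgCtrl library once scaled, at 35.1 ± 0.249 CPM and 46.6 ± 2.57 CPM (SD, n = 3 each). The log2 fold change was 0.41 (SE 0.10, adjusted p = 0.0016, edgeR), with a range of 0.38 to 0.46 over the libraries left out.

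*MLX* (ENSG00000108788, chromosome 17, 42567068 to 42573239, plus strand) was counted 794, 908 and 843 times in sgCtrl and 1225, 1098 and 1014 times in sgNF2-1. The groups did not overlap, with means of 53.7 ± 2.92 and 70.7 ± 0.899 CPM (SD, n = 3 each). This was a log2 fold change of 0.39 (SE 0.09, adjusted p = 9.8e-04, edgeR). *PSMC3IP* on the opposite strand shares 18.1% of the exon bases of *MLX*, and its own log2 fold change was -0.20 (adjusted p = 0.41, edgeR).

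Among the repressors, *MXD4* (ENSG00000123933, chromosome 4, 2247432 to 2262294, minus strand) had the most counts. They were 3140, 3276 and 2994 in sgCtrl and 2414, 2109 and 2229 in sgNF2-1. All sgNF2-1 libraries were below all sgCtrl libraries, and the third of them was the highest of its group at 156.5 CPM. The group means were 198.7 ± 1.23 and 143 ± 11.3 CPM (SD, n = 3 each), and the log2 fold change was -0.47 (SE 0.08, adjusted p = 6.8e-05, edgeR). This value was just short of the fold limit of 0.5 in the study's thresholds, and it passed that limit, at -0.53, without sgNF2-1 replicate 3, which raised the number of lower members at those thresholds from 1 to 2. The 10 tested genes nearest *MXD4* included 5 that were called higher and 0 that were called lower in edgeR. Of all tested genes, 17.7% were higher and 16.6% lower. Calls against the direction of the member were also seen near *MLX*, where 1 of 10 genes was higher and 4 were lower. Near *MXD3*, 3 of 10 were higher and 1 was lower.

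*MXD3* (ENSG00000213347, chromosome 5, 177301461 to 177312757, minus strand), a member of the family known from dividing cells, had sgCtrl counts of 524, 481 and 373 and sgNF2-1 counts of 311, 250 and 266. The sgCtrl libraries were spread from 24.6 to 33.2 CPM, all above the sgNF2-1 libraries at 16.2 to 18.7 CPM. With a log2 fold change of -0.73 (SE 0.12, adjusted p = 5.0e-05, edgeR), it was the member with the largest decrease, and the estimate was between -0.83 and -0.62 with each library left out. Part of this gene is shared with its neighbors. *PRELID1* on the opposite strand covers 1158 of its 5154 exon bases and *RAB24* on the same strand 926, with log2 fold changes of 0.20 and 0.09 (adjusted p = 0.11 and 0.65, edgeR), and *PRELID1* had 1860 to 2451 counts per library. Neither neighbor was called in the direction of *MXD3*. Whether reads in the shared exons were counted for *MXD3* is not given in the sources used here, so its level is uncertain.

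*MXD1* (ENSG00000059728, chromosome 2, 69897688 to 69942945, plus strand), the founding MXD gene and linked to differentiation, had sgCtrl counts of 245, 308 and 227 and sgNF2-1 counts of 398, 361 and 346. Mean CPM was 16.4 ± 2.05 in the former and 23.4 ± 0.840 in the latter (SD, n = 3 each), with no overlap. Its log2 fold change was 0.51 (SE 0.12, adjusted p = 0.0018, edgeR). It remained past the adjusted threshold with every library left out, but it stood at the fold limit of the study's thresholds. Without sgCtrl replicate 1, sgCtrl replicate 3 or sgNF2-1 replicate 3 it was 0.47, 0.45 and 0.49, which left 1 higher member, *MYC*, in place of 2 at those thresholds.

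*MNT* (ENSG00000070444, chromosome 17, 2384060 to 2401118, minus strand), a broadly expressed repressor, had sgCtrl counts of 653, 646 and 506 and sgNF2-1 counts of 822, 719 and 721. The lowest sgCtrl library, replicate 3 at 33.3 CPM, stood below the other two at 39.4 and 41.4 CPM, and the sgNF2-1 libraries lay between 46.6 and 50.6 CPM. The log2 fold change was 0.33 (SE 0.10, adjusted p = 0.012, edgeR). Without sgCtrl replicate 3 it was 0.25 with an adjusted p of 0.060 in edgeR, so the call on *MNT* rests on that library, and 4 higher members remained.

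*MXI1* (ENSG00000119950, chromosome 10, 110207605 to 110287365, plus strand), also known as MXD2, had sgCtrl counts of 664, 700 and 715 and sgNF2-1 counts of 979, 719 and 692. The groups overlapped, since sgNF2-1 replicate 2 at 46.6 CPM was below sgCtrl replicate 3 at 47.1 CPM, and sgNF2-1 replicate 1 at 55.6 CPM stood above the rest. The log2 fold change was 0.19 (SE 0.10, 95% interval -0.01 to 0.40, adjusted p = 0.13, edgeR). Over its 12 alternatives the adjusted p ranged from 0.070 to 0.47.

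**Figure D2:**
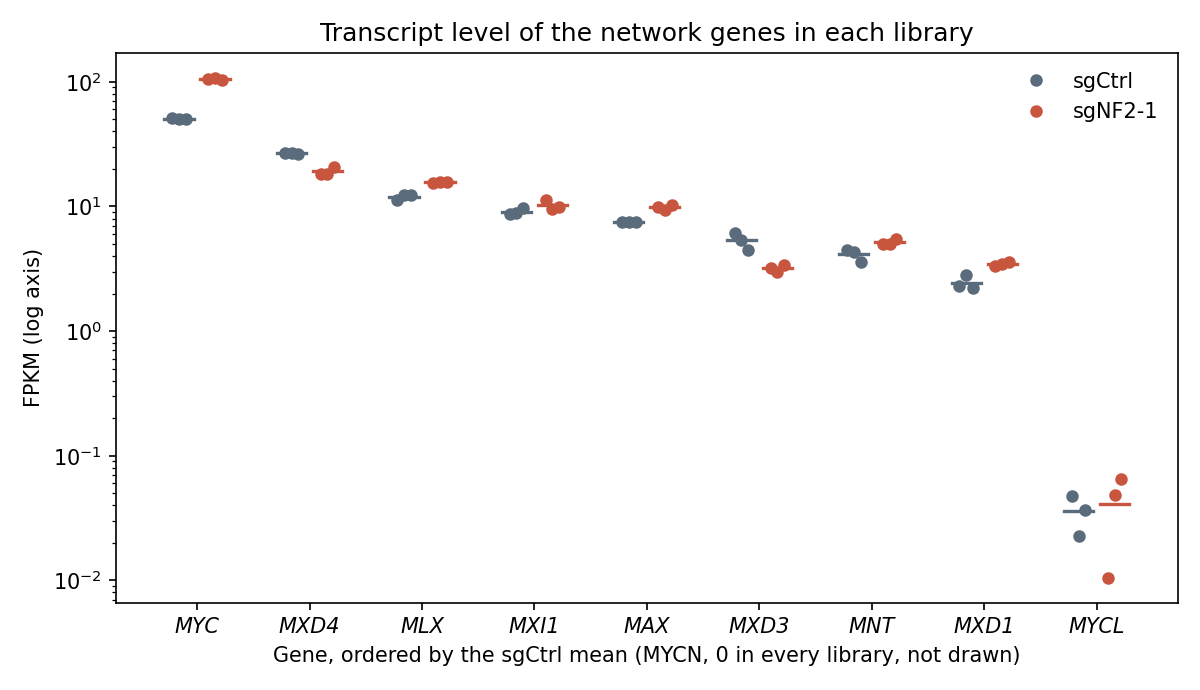
FPKM of each member (vertical log axis) in the 3 sgCtrl libraries (gray) and the 3 sgNF2-1 libraries (red), with a line at each group mean. *MYC* moves from 50.4 to 105 FPKM, *MXD4* and *MXD3* are the genes whose red points lie below the gray ones, and *MYCL* stays below 0.1 FPKM.

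Levels of different genes can be compared roughly on the FPKM scale, on which the authors divided counts by gene length and depth. For the members, this length equals all annotated exon bases of the gene, not the length of the transcripts expressed. The order of the genes and the size of ratios between them depend on it. The level of *MXD3* is also uncertain because of its shared exons. In sgCtrl the order from high to low was *MYC* at 50.4 ± 0.370 FPKM, *MXD4* at 26.7 ± 0.205, *MLX* at 11.96 ± 0.650, *MXI1* at 9.04 ± 0.552, *MAX* at 7.50 ± 0.0648, *MXD3* at 5.34 ± 0.802, *MNT* at 4.13 ± 0.460 and *MXD1* at 2.45 ± 0.310 FPKM (SD, n = 3 each), with *MYCL* at 0.0358 and *MYCN* at 0. No neighbors in this order overlapped, though the lowest *MXD3* library and the highest *MNT* library were close, at 4.51 and 4.50 FPKM. In sgNF2-1 the means were 105, 19.1, 15.6, 10.2, 9.88, 3.19, 5.16 and 3.46 FPKM for the same 8 genes, so *MXD3* dropped from the sixth place to the eighth, behind *MNT* and *MXD1*. The libraries of *MXI1* and *MAX*, and those of *MXD1* and *MXD3*, overlapped there. Among all 58735 genes ranked by mean FPKM, *MYC* moved from position 815 to position 362, and *MXD4* from 1649 to 2351.

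On the log2(FPKM + 1) scale, which understates the change of low genes, limma called the same 5 members higher, against 14.3% of the 13038 genes whose mean reached 0.5 FPKM, and the same 2 lower, against 14.1%. The differences were 1.04 for *MYC* (SE 0.06, adjusted p = 5.6e-05, limma) and -0.47 for *MXD4* (SE 0.07, adjusted p = 0.0023, limma). For *MNT* the difference of 0.27 was at the threshold (adjusted p = 0.0497, limma) and missed it in 7 of 9 alternatives, while the other 6 called members kept their calls in all 9.

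Ratios within each library describe how the transcripts of the network stood to each other. *MYC* FPKM was 6.75, 6.62 and 6.77 times *MAX* FPKM in the sgCtrl libraries and 10.5, 11.5 and 9.91 times in the sgNF2-1 libraries. Summed over *MXD1*, *MXD3*, *MXD4*, *MXI1* and *MNT*, the repressors stood at 47.6 ± 1.01 FPKM in sgCtrl and 41.1 ± 1.94 FPKM in sgNF2-1 (SD, n = 3 each). The ratio of *MYC* to this sum was 1.06 ± 0.0217 in sgCtrl and 2.55 ± 0.178 in sgNF2-1. The ratio of the sum to *MAX* was 6.35 ± 0.0885 and 4.17 ± 0.0382. *MXD4* made up 56.0 ± 0.809% of the repressor sum in sgCtrl and 46.4 ± 1.96% in sgNF2-1 (SD, n = 3 each). None of these ratios overlapped between the groups. All their members except *MXI1* already had groups that lay apart, so this adds no separate evidence. The ratios are given as descriptions with no test, as the values of their members were tested above.

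**Figure D3:**
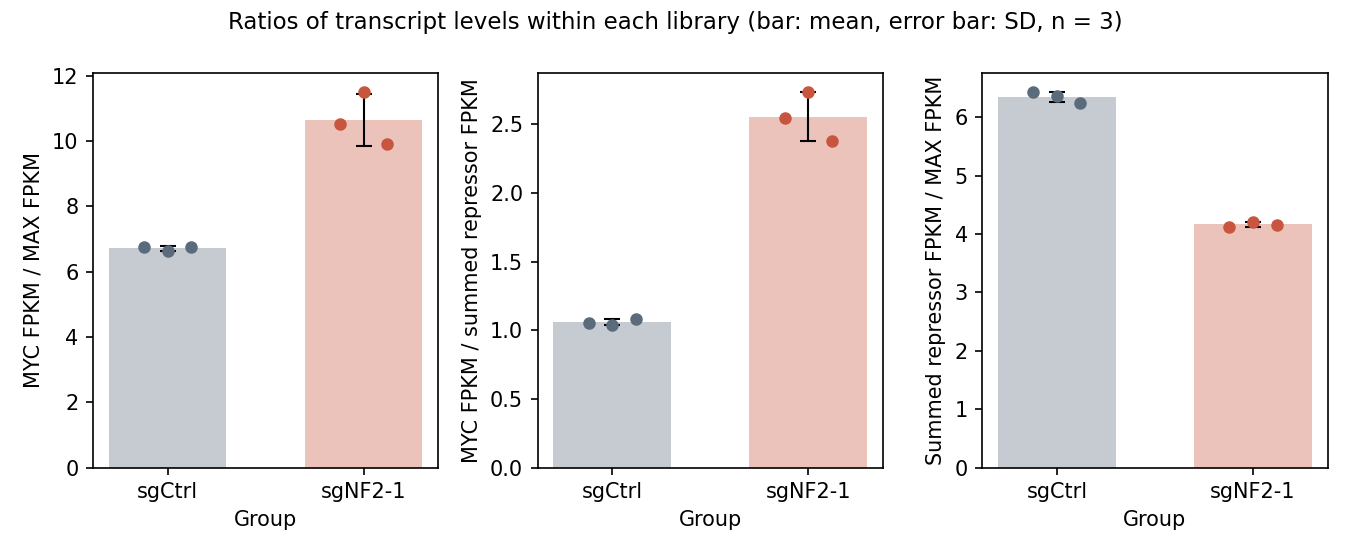
Ratios of FPKM within each library, with 1 point per library, bars at the group mean and error bars of 1 SD (n = 3). *MYC* over *MAX* goes from 6.71 to 10.6, *MYC* over the summed repressors from 1.06 to 2.55, and the summed repressors over *MAX* from 6.35 to 4.17.

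The E-box that the network binds occurs in the promoters of 3 members, which are shown because they moved in different directions. In RefSeq promoter windows of 300 bases (GRCh38.p14, 250 bases before to 50 after a gene's start), 9 of the 10 members had an entry, and *MYC* had none. The motif searched was CACGTG, which reads the same on both strands. It was found once each in *MXD4*, *MNT* and *MLX*, and in none of the windows of *MYCN*, *MYCL*, *MAX*, *MXD1*, *MXD3* and *MXI1*. By gene, it was in 8.77% of all 27305 symbols with a window and in 12.7% of the 10042 tested symbols with a window. The lines below give 30 bases around each match, 5′ to 3′ on the strand of the gene, with the E-box in capitals.
*MXD4*, chr4:2262330-2262359, minus strand: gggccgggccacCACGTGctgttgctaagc
*MNT*, chr17:2401236-2401265, minus strand: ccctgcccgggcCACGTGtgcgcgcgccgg
*MLX*, chr17:42567038-42567067, plus strand: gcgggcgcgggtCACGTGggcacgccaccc

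The match begins 238 bases before the RefSeq start for *MXD4*, 193 bases for *MNT* and 50 bases for *MLX*. All 3 lie upstream of the gene bounds in the authors' table, by 48, 130 and 13 bases, and no other gene of that table covers them. A match describes the letters in these windows and not occupancy by any factor. The log2 fold changes of the 3 genes were -0.47, 0.33 and 0.39, as given above.

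Other network proteins were not called. *MLXIP*, also known as MondoA and the partner of MLX that responds to glucose, had a log2 fold change of -0.17 (95% interval -0.37 to 0.03, adjusted p = 0.19, edgeR). *MGA*, a large MAX partner, had 359, 359 and 330 counts in sgCtrl and 524, 417 and 270 in sgNF2-1, so that its sgNF2-1 libraries spanned the sgCtrl level, with a log2 fold change of 0.19 (95% interval -0.08 to 0.47, adjusted p = 0.27, edgeR). *MLXIPL*, the ChREBP gene, had 0 to 9 counts per library and was not tested. Without sgCtrl replicate 3, 1 of these genes (*MLXIP*) was called lower, and without sgNF2-1 replicate 3, 1 (*MGA*) was called higher.

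Of 9 genes for MYC coactivators, 5 were higher and 0 lower, beside 17.7% and 16.6% of all tested genes, and the list median was 0.32. This list and those below were chosen with earlier results of these data known, so their shares are descriptions only. *RUVBL1* and *RUVBL2*, ATPases of the TIP60 complex, and *WDR5*, an adaptor of histone methyltransferases that binds MYC, had log2 fold changes of 0.56, 0.50 and 0.53. *TRRAP*, the scaffold of MYC's acetyltransferase complexes, had a log2 fold change of 0.08 (adjusted p = 0.61, edgeR).

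Of 9 genes for corepressors and for the MYC-binding factor *ZBTB17*, 5 were lower and 1 higher, with a median of -0.38. Of all tested genes, 16.6% were lower and 17.7% higher. *SAP30*, a SIN3 subunit, and *HDAC1*, a histone deacetylase, fell by 0.56 and 0.54 on the log2 scale (SEs 0.13 and 0.08). *ARID4A*, *ARID4B* (whose groups overlapped) and *SUDS3* fell by 0.46, 0.43 and 0.38. *HDAC2*, also a deacetylase of this list, had a log2 fold change of 0.18 and was not called (adjusted p = 0.089, edgeR). Its sgNF2-1 libraries all lay above its sgCtrl libraries. *SIN3B*, a scaffold that the MXD proteins bind, rose by 0.41, and *SIN3A* had a log2 fold change of -0.12 (adjusted p = 0.39, edgeR). The number of lower genes was 3 in place of 5 without sgCtrl replicate 2 and without sgNF2-1 replicate 3.

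In the MAX and MGA repressor complex, a variant Polycomb complex, 1 of 10 genes was higher (*L3MBTL2*, 0.36) and 2 were lower (*PCGF6* and *CBX3*, -0.40 and -0.37), with a median of 0.02. These calls were 30% of the list, below the 34.3% of all tested genes. The count of lower genes was 1 without sgCtrl replicate 1, sgCtrl replicate 2, sgNF2-1 replicate 1 or sgNF2-1 replicate 2, and that of higher genes was 0 without sgCtrl replicate 2. Of 12 genes for MYC protein turnover, 1 was higher and 2 were lower, or 25%, also below that background, with a median of 0.05. *USP36*, a nucleolar deubiquitinase that stabilizes MYC, had 611, 681 and 486 counts in sgCtrl and 1271, 1131 and 1093 in sgNF2-1, a log2 fold change of 0.98 (SE 0.10, adjusted p = 2.6e-08, edgeR). *SKP2*, a ubiquitin ligase subunit, fell by 0.57, and *CIP2A*, an inhibitor of the phosphatase that destabilizes MYC, fell by 0.31. *FBXW7*, the main ligase for phosphorylated MYC, had a log2 fold change of -0.42 (adjusted p = 0.076, edgeR). The count of lower turnover genes was 1 in each fit that left out a library other than sgCtrl replicate 1, and that of higher genes was 2 without sgCtrl replicate 3.

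Of 28 genes listed as activated by MYC, 27 were tested, 18 were higher and 4 lower, and the median log2 fold change was 0.44. The shares over all tested genes were 17.7% higher and 16.6% lower. This is not an independent comparison, as the list was chosen with earlier results of these data known. *ODC1*, ornithine decarboxylase of polyamine synthesis and a classic MYC target, averaged 442.5 ± 10.5 CPM in sgCtrl and 734.1 ± 11.4 CPM in sgNF2-1 (SD, n = 3 each) and rose by 0.73 on the log2 scale (SE 0.08, adjusted p = 9.9e-08, edgeR). The largest increases were those of *RRP9*, *SLC19A1*, *MYBBP1A* and *CAD*, at 0.86, 0.81, 0.80 and 0.78 (SEs 0.11, 0.09, 0.09 and 0.08). *RRP9* and *MYBBP1A* act in ribosome production, *SLC19A1* imports folate, and *CAD*, the enzyme of early pyrimidine synthesis, is a gene the study itself selected from these libraries. The 4 lower genes go against the list's name. They were *LDHA*, lactate dehydrogenase, at -0.87 (SE 0.09), *TFRC*, the transferrin receptor, at -0.48, *EIF4E*, the cap-binding factor, at -0.28, and *PRDX3*, a mitochondrial peroxidase, at -0.25. Without sgCtrl replicate 3, sgNF2-1 replicate 1 or sgNF2-1 replicate 2 the lower genes numbered 2. The higher genes numbered 15 to 17 with each library left out. An E-box stood in the promoter windows of 15 of the 25 genes of this list that had a window (60.0%). Over the tested symbols with a window the share was 12.7%. The list was chosen for a known link to MYC, so its share is a description only. Binding of MYC to these genes was not tested.

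Of 7 genes listed as repressed by MYC, 5 were tested and all passed the threshold, in both directions, where 34.3% of all tested genes passed it. *NDRG1*, *CCNG2* and *CDKN1B* were lower, with log2 fold changes of -0.68, -0.44 and -0.24, while *GADD45A* and *CDKN1A* were higher, at 0.74 and 0.34. The call on *CDKN1A*, the inhibitor p21, was at the threshold (adjusted p = 0.049, edgeR), and 1 higher gene was left without sgCtrl replicate 1, sgCtrl replicate 2, sgNF2-1 replicate 2 or sgNF2-1 replicate 3. The lower genes numbered 2 in place of 3 whichever library was left out. The 5 genes listed as targets of MLX and MLXIP also divided, with 80% of them called beside the same 34.3%. *TXNIP*, the thioredoxin-interacting protein, and *KLF10* were higher at 0.27 and 0.34, *ARRDC4*, the arrestin-domain gene regulated together with *TXNIP* by glucose, and *PFKFB3* were lower at -0.47 and -0.50, and *HK2* had -0.18 (adjusted p = 0.10, edgeR). The count of higher genes in this list was 0 without sgCtrl replicate 1, sgNF2-1 replicate 1 or sgNF2-1 replicate 2, and 1 without sgCtrl replicate 2.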

How the data were processed

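RNA was measured in 3 sgCtrl and 3 sgNF2-1 libraries of H2452 cells, with groups and replicate numbers from the sample titles. The deposited count table holds raw read counts per gene, and the deposited FPKM table holds values that the authors scaled by gene length and depth. The submitters' processing notes name HISAT2, StringTie 1.3.3b, featureCounts 1.5.0-p3 and the build hg38, and the strand setting is not given in the sources used here. The kit is NEBNext Ultra. All 10 members have the same bounds in GENCODE release 29.

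Counts were filtered with filterByExpr (minimum count 10, minimum total 15), TMM-scaled and fitted by group with edgeR 4.0.16 in R 4.3.3. Limma 3.58.1 was run on log2(FPKM + 1) for genes whose mean reached 0.5 FPKM. DESeq2 1.42.0, the tool named in the study's methods, was an alternative. The edgeR, DESeq2 and limma fits, but not the other procedures, were tested on simulated data. Simulated log2 changes of 0.5 were called in the right direction for 66%, 65% and 20.8% of genes, in that order. For changes of 1 the shares were 96%, 94% and 76.8%. At most 100 tested genes were changed at each size in the simulation, far fewer than were called in these data. The adjusted threshold was therefore stricter there, and the shares may differ for these data. No library was a duplicate of another (within-group chi-square per degree of freedom 5.17 to 12.6).

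The members and lists were chosen with earlier results of these data known. Named genes are the members, the listed genes with the largest called changes and those of lists of at most 5, genes overlapping a member, *NF2* and the 3 profiles nearest *MYC*; other listed genes were named after their values were seen. Alternatives were DESeq2, a replicate block, the omission of each library, scaling by DESeq2's size factors or by totals alone, dropping the count filter or asking for 10 counts everywhere and, for FPKM, a pseudocount of 0.1 and no filter. The values of 1 listed gene are not reported here.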

Additional observations from a re-analysis of the deposited data

How the results depend on the processing

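Of 96 fold changes of members under alternatives, 95 kept their direction and their side of the adjusted threshold. The exception was *MNT* without sgCtrl replicate 3, and with each library left out its log2 fold change ranged from 0.25 to 0.40. Of 216 list counts, 184 stayed within 1.5 times. At the study's thresholds, 1 member was higher with library totals only, since *MXD1* then had a log2 fold change of 0.48, and with each library left out the numbers were 1 to 2 higher and 1 to 2 lower. Genes listed as repressed by MYC had 1 higher call with DESeq2, DESeq2's size factors, library totals or at least 10 counts in every library, and 1 to 2 with each library left out. Their lower calls numbered 2 in place of 3 with no filter on low counts and with each library left out. Turnover genes had 1 lower call with no filter and, with the replicate block, 2 higher calls. With each library left out, turnover genes had 1 to 2 higher and 1 to 2 lower, and the MAX and MGA complex 0 to 1 higher and 1 to 2 lower. In the same fits, MLX targets had 0 to 2 higher, corepressors 3 to 5 lower, and activated targets 15 to 17 higher and 2 to 4 lower. *MGA*, *MLXIP* and *MLXIPL* had 0 to 1 in each direction there. The cause was not tested, beyond the smaller number of libraries.

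The labels do not say whether same-numbered libraries belong together. Over 8970 genes, the correlations of their deviations from the group means were -0.08, 0.27 and 0.15. For 2 of the 3 sgCtrl libraries, the most correlated sgNF2-1 library carried the same number. With the replicate number as a block, 2698 genes were higher and 2501 lower, beside 2515 and 2351, the log2 fold change of *MYC* was 1.07, and in edgeR no member's call changed. Depth limits *MYCL*, and *MYCN* had no counts to test.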
